A study of Mus musculus with 6 samples.

Results

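Fjx1 and Epha4 are 2 of the 3200 target genes in a set of miRNA–mRNA hybrids captured on AGO2, and they held 108 and 52 of its 15680 reads. They were selected on their hybrid counts, which were high in WT cells and low in HM cells, and on the 5p miRNAs joined to them there, so those values are given below as a description, without a test. All deposited entries listed under either gene name were taken, 97 for Fjx1 and 51 for Epha4 of 15159 entries in all, an entry being 1 hybrid sequence of 1 library with its read count. P19 cells, a mouse embryonic carcinoma line, were compared in 2 genotypes with 3 biological replicates each: WT cells, labelled Dicer (+/+), and HM cells, labelled Dicer (HM/-), which were edited with CRISPR and carry a truncating loss-of-function change on one Dicer1 allele and the RNase IIIb hotspot change E1797G on the other. The HM line came from a clonal line that had already lost the first allele, so genotype and clone cannot be told apart. The study notes that this line does not express the miRNA cluster of chromosome 12. Hybrids with 3p miRNAs of that cluster were still found, at 1.19 to 1.30% of each WT library and 1.67 to 1.86% of each HM library. Nearly all HM hybrids were 3p, and per 3p hybrid the cluster was lower in HM. It gave 23 of 916, 28 of 1091 and 21 of 701 3p reads in WT libraries 1 to 3. The HM libraries had 28 of 1585, 89 of 5113 and 52 of 2670. Its 5p miRNAs dropped from 13, 12 and 10 reads (WT libraries 1 to 3) to 0, 1 and 0 (HM libraries 1 to 3). All 6 cultures went through AGO2-CLASH: the cells were cross-linked with UV light, AGO2 was pulled down with an antibody, and each miRNA was ligated to the mRNA piece beside it, so that the pair could be read as 1 hybrid molecule. Library totals were 1621 to 2331 hybrid reads in WT and 1661 to 5341 in HM, and 5p miRNAs made up 52.3 to 56.5% of the WT hybrids and 3.66 to 4.23% of the HM hybrids. The miR-290 to miR-295 and miR-302 clusters, which mark pluripotent cells, gave 34.5 to 38.7% of the WT and 56.9 to 59.1% of the HM hybrids, while miRNAs typical of liver, muscle, neurons and blood gave 1 read in all 6 libraries.

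Fjx1 (four-jointed box kinase 1) encodes a kinase of the secretory pathway that phosphorylates cadherin domains of Fat and Dachsous proteins, large cell-surface cadherins that act in planar cell polarity and upstream of the Hippo pathway. Epha4 encodes a receptor tyrosine kinase for ephrins of both the A and the B class and is known for its part in axon guidance and in the sorting of cells at tissue boundaries. miRNAs guide AGO proteins to the 3′ UTR of an mRNA mainly through their seed, bases 2 to 8. Dicer releases the strands of a miRNA precursor with a pair of RNase III domains, and the RNase IIIb domain, which the hotspot mutations hit, makes the cut that frees the 5p strand. The miR-17 seed family is made from the miR-17-92, miR-106a-363 and miR-106b-25 clusters, and its members act as 5p guides.

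The 6 family members found on both genes had the same seed and differed by 1 to 5 positions from one another, outside that seed. They are shown because nearly every Fjx1 and Epha4 hybrid carried one of them. The mature sequences are those of RefSeq for GRCm38.p6, with bases 2 to 8 in capitals. miR-17-5p (chr14:115043684-115043706) and miR-20a-5p (chr14:115044183-115044205) lie on the plus strand. miR-20b-5p (chrX:52742159-52742181), miR-106a-5p (chrX:52742541-52742563), miR-93-5p (chr5:138165574-138165596) and miR-106b-5p (chr5:138165787-138165807) lie on the minus strand.
miR-17-5p: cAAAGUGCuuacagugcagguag
miR-20a-5p: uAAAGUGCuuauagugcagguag
miR-20b-5p: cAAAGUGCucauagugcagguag
miR-106a-5p: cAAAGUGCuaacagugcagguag
miR-93-5p: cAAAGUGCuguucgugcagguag
miR-106b-5p: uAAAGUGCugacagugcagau

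The target fragments that carried these miRNAs centred on 1 region in each gene. They are printed 5′ to 3′ as deposited, in DNA letters, with the bases opposite the seed in capitals, together with the A opposite base 1 of the miRNA where it was present. A match to bases 2 to 8 followed by this A is an 8mer, and the same match without the A is a 7mer-m8. The Fjx1 fragment was the most frequent one of its region, with 16 reads over 3 libraries. Epha4 had an 8mer and, starting 19 nt further on, a 7mer-m8, and its most frequent fragments of each are shown with the stretch that holds both. No genome of the authors' build was used here, so the sites are given by sequence and not by position, and all were reported by the authors as 3′ UTR fragments.
Fjx1 site: cagtttcatGCACTTTActtt
Epha4 first site: ctcatccatGCACTTTAatt
Epha4 second site: tgaagaactGCACTTTtttt
Epha4 both sites: GCACTTTAattgaagaactGCACTTT

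WT libraries 1 to 3 held 35, 45 and 21 hybrid reads of Fjx1, whereas HM libraries 1 to 3 held 1, 4 and 2. Per 1000 hybrids of the library this was 18.1, 19.3 and 13.0 in WT (mean 16.8 ± 3.38, SD, n = 3) and 0.602, 0.749 and 0.715 in HM (mean 0.689 ± 0.0769, SD, n = 3). Every WT library lay above every HM library, and of 1953 genes with a WT hybrid only 1 had more reads than Fjx1. In the pooled HM libraries 271 genes had more. The fitted log2 fold change of HM over WT was −4.49 (SE 0.45).

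For Epha4 the WT libraries held 12, 24 and 10 reads, whereas the HM libraries held 2, 0 and 4. This was 6.22, 10.3 and 6.17 per 1000 hybrids in WT (mean 7.56 ± 2.37, SD, n = 3) and 1.20, 0 and 1.43 in HM (mean 0.878 ± 0.769, SD, n = 3). Again no HM library reached a WT library, and 6 genes had more reads in WT and 332 in HM. The empty library was HM 2, the deepest, where 0 of 5341 reads allows a share of up to 0.0562%. The fitted log2 fold change was −3.52 (SE 0.56), and it was −2.47 without HM replicate 2 and −4.51 without HM replicate 3. Both genes were lower in HM by edgeR's quasi-likelihood test as were 10.8% of the 344 genes tested, and 14.2% of these genes had every HM library below every WT library; since both genes were chosen by this contrast, nothing is read from their calls. Of all genes tested 20 were higher and 37 lower, and with the libraries scaled to 3p hybrids 1 was higher and 68 lower, the log2 fold change being −5.52 for Fjx1 and −4.55 for Epha4. A hybrid count moves with the level of the mRNA, of the miRNA and of their pairing, and mRNA levels were not measured in these libraries. The study sequenced mRNA of WT and HM cells separately, and those data were not used here.

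**Figure D1:**
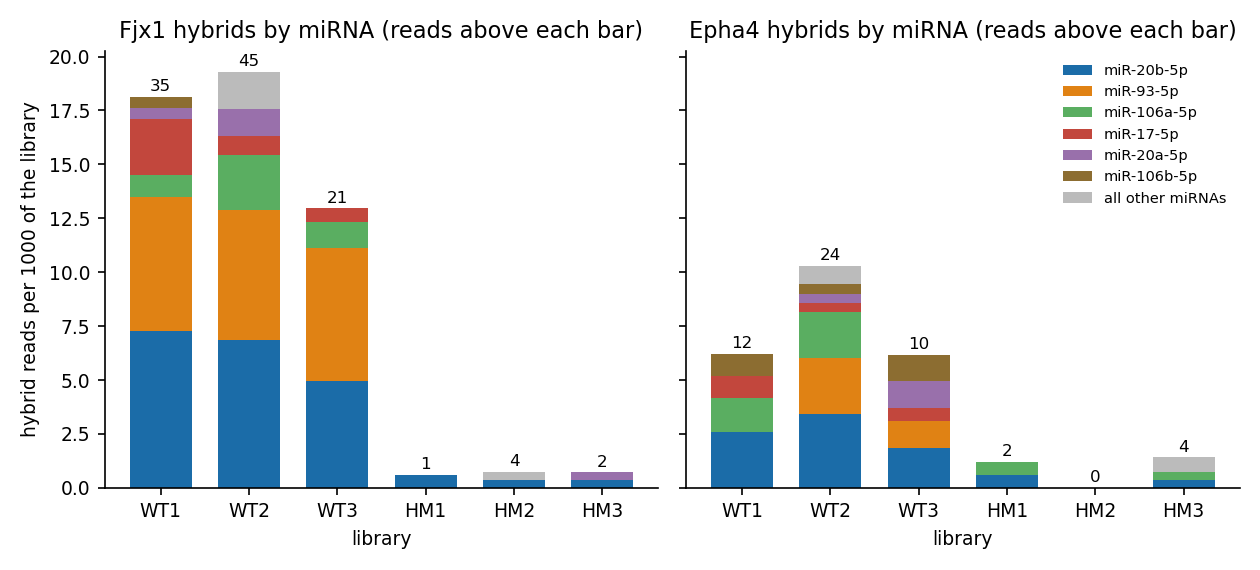
Hybrid reads of Fjx1 (left) and Epha4 (right) per 1000 hybrids of each library, stacked by miRNA, with the reads given above each bar. The WT bars of Fjx1 are mostly blue and orange (miR-20b-5p and miR-93-5p), those of Epha4 are more mixed, and the 3 HM bars hold 1, 4 and 2 reads for Fjx1 and 2, 0 and 4 for Epha4.

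The family accounted for nearly all WT hybrids of both genes, and 3p miRNAs for almost none. Of the 101 Fjx1 reads in WT, 97 carried a family member, 2 carried miR-191-5p and 2 carried miR-127-3p. miR-20b-5p had 14, 16 and 8 Fjx1 reads in WT libraries 1 to 3, and miR-93-5p had 12, 14 and 10. These led in every WT library, and the rest of the family had fewer reads: 2, 6 and 2 for miR-106a-5p, 5, 2 and 1 for miR-17-5p, 1, 3 and 0 for miR-20a-5p, and 1 read in all for miR-106b-5p. The 5p share of the Fjx1 hybrids was thus 98.0%, and the only 3p miRNA was miR-127-3p, with both its reads in WT library 2. miR-127-3p lies in the chromosome 12 cluster (chr12:109592888-109592909, plus strand) and had 0, 3 and 2 reads over all genes in WT and none in HM.

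All 46 Epha4 reads in WT carried 5p miRNAs, 44 of them family members. miR-20b-5p had 5, 8 and 3 reads in WT libraries 1 to 3, and miR-106a-5p had 3, 5 and 0. miR-93-5p, level with miR-20b-5p on Fjx1, had 0, 6 and 2 reads here. The remaining family reads were 2, 1 and 2 for miR-106b-5p, 2, 1 and 1 for miR-17-5p, and 0, 1 and 2 for miR-20a-5p. miR-290a-5p and miR-302d-5p, from clusters active in pluripotent cells, had 1 read each, both in WT library 2.

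Among the 105 genes with at least 10 WT reads, the median 5p share was 50%, with 25% of the genes at or below 19.6% and 25% at or above 91.7%. Epha4 was among the 18 genes at 100%, and 19 genes lay above Fjx1. A share near 100% was thus found on many targets.

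**Figure D2:**
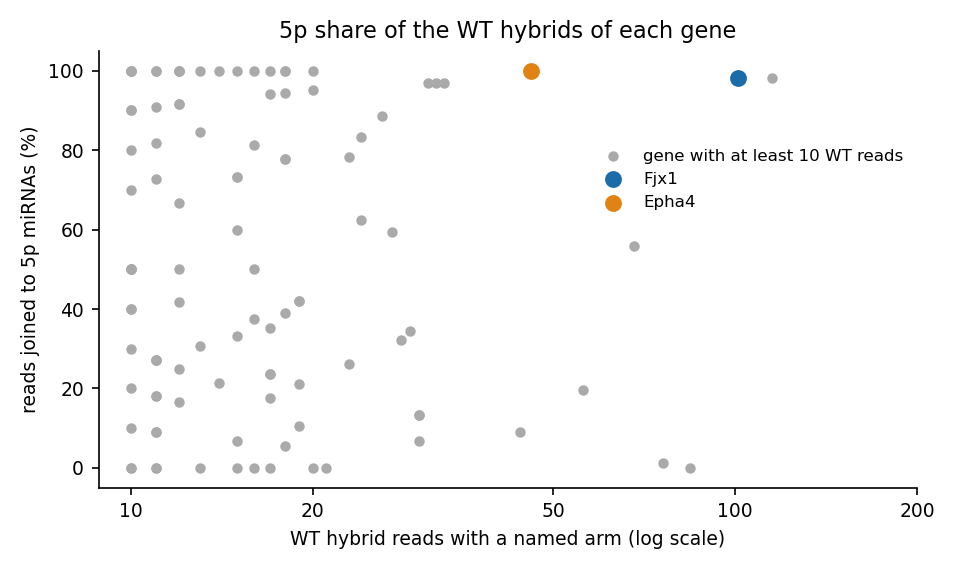
Share of each gene's WT reads joined to 5p miRNAs (%) against its WT reads (log scale), for the 105 genes with at least 10 WT reads. Fjx1 (blue, 98.0%) and Epha4 (orange, 100%) lie at the upper edge, to the right of most other genes there.

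The miRNA part of the hybrids was compared with the sequences of these near-identical miRNAs. The authors named each miRNA from this same part, so the check is no independent support for the names. Over both genes, 134 of 139 family entries held a stretch of the named miRNA without a mismatch, and all 139 were nearer to their own name than to any other family member. In HM this was true of 9 of 9 entries, whose miRNA parts were 21 to 23 nt long. No Fjx1 or Epha4 fragment was also listed under another gene.

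Within the family, the read shares of the miRNAs on Fjx1 differed from those on all other genes. miR-20b-5p made up 40.0, 39.0 and 38.1% of the family hybrids of Fjx1 in WT libraries 1 to 3, against 28.5, 29.1 and 34.4% of those on all other genes. miR-93-5p made up 34.3, 34.1 and 47.6%, against 23.1, 23.9 and 21.0% elsewhere. In WT library 1 the 35 Fjx1 reads came from 27 entries. Its 12 miR-93-5p reads included 1 entry with 5 reads and another with 2, and shares per entry were not worked out. miR-106a-5p went the other way, with 5.71, 14.6 and 9.52% on Fjx1 and 21.6, 18.9 and 20.2% elsewhere. The direction was the same in each of the 3 WT libraries for these 3 miRNAs. Of the other members, miR-17-5p went both ways, with 14.3, 4.88 and 4.76% against 11.9, 12.5 and 11.5% elsewhere. miR-106b-5p and miR-20a-5p were lower on Fjx1, miR-20a-5p in WT library 2 only by 7.32 against 7.35%. Shares of 1 whole move together. Each library had only 21 to 41 family reads on Fjx1, and an exact two-sided sign-flip test over 3 libraries cannot go below p = 0.25. On Epha4 the make-up varied more between libraries, with miR-20b-5p at 36.0 ± 5.84% and miR-106a-5p at 15.9 ± 13.8% (SD, n = 3), and both values lay within 1 SD of those on all other genes.

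Fjx1 and Epha4 were the targets with the most family reads in WT, 97 and 44 of 1914. Next came Il17rd, an inhibitor of FGF signalling, and Laptm4a, a lysosomal membrane protein, with 32 reads each, and then the imprinted gene Peg10 and Xiap, an inhibitor of caspases, with 31 each. Fjx1 was first in each WT library, where it held 5.81, 5.42 and 3.78% of the family hybrids. For Epha4 these shares were 1.99, 2.91 and 1.80%. The Wilson 95% intervals of the 2 genes lay apart in WT library 1 (4.21 to 7.98% and 1.14 to 3.45%) but overlapped in the other two. Epha4, with 12, 22 and 10 family reads, was not separated from Il17rd, with 12, 10 and 10, or from Laptm4a, with 13, 14 and 5. Laptm4a differed from both in that the family gave only 27.8% of its 115 WT reads, against 96.0% for Fjx1 and 95.7% for Epha4.

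The WT miRNA profile, taken as reads per miRNA, was compared with that of 104 other genes with at least 10 WT reads by cosine similarity, which is 1 for equal proportions. The genes most like Fjx1 were Il17rd (0.974), Npat (0.971), Znfx1 (0.934), Serinc1 (0.932) and Hist1h3g (0.926), against a median of 0.282. Those most like Epha4 were a gene listed in the date form 2-Sep (0.948), Lamtor1 (0.946), Serinc1 (0.943), Otud4 (0.935) and Il17rd (0.934), against a median of 0.319. The likeness between Fjx1 and Epha4 themselves was 0.907, which was 7th from Fjx1 and 10th from Epha4. These genes had 11 to 34 WT reads.

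Fragments that shared a stretch of at least 12 nt were joined into regions, which gave 6 regions for Fjx1 and 5 for Epha4. The main Fjx1 region, with the 8mer printed above, held 32, 35 and 18 WT reads, which was 77.8 to 91.4% of the Fjx1 reads of a library. All 85 were of the family, and all contained the 8mer. They came from 6 miRNAs, led by miR-20b-5p and miR-93-5p with 34 reads each. The fragments began 6 to 14 nt before the match, with a median of 9, and ended 2 to 19 nt after the 8mer, with a median of 4. The site therefore stood near the 3′ end of a short fragment in most reads.

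The main Epha4 region held 12, 21 and 10 WT reads, 87.5 to 100% of the Epha4 reads of a library. Its first site, the 8mer, was covered alone by 7, 13 and 4 reads in WT libraries 1 to 3. The second, the 7mer-m8 that begins 12 nt after the seed match of the first ends, was covered alone by 4, 5 and 4, and both were covered by 1, 3 and 2. Each WT library thus had reads from either site. The reads covering only the first site were 10 of miR-20b-5p, 6 of miR-93-5p, 4 of miR-106a-5p, 3 of miR-17-5p and 1 of miR-106b-5p. Those covering only the second were 4 of miR-106b-5p, 3 of miR-20a-5p, 2 of miR-93-5p and 1 each of miR-106a-5p, miR-17-5p, miR-20b-5p and miR-302d-5p. The order of the miRNAs thus differed between the sites, in 24 and 13 reads that were not tested. All 6 family members have the same seed, so the seed match alone names no preference. The 6 reads over both sites carried miR-106a-5p or miR-20b-5p, with 3 each, and such a read does not show which site was bound.

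**Figure D3:**
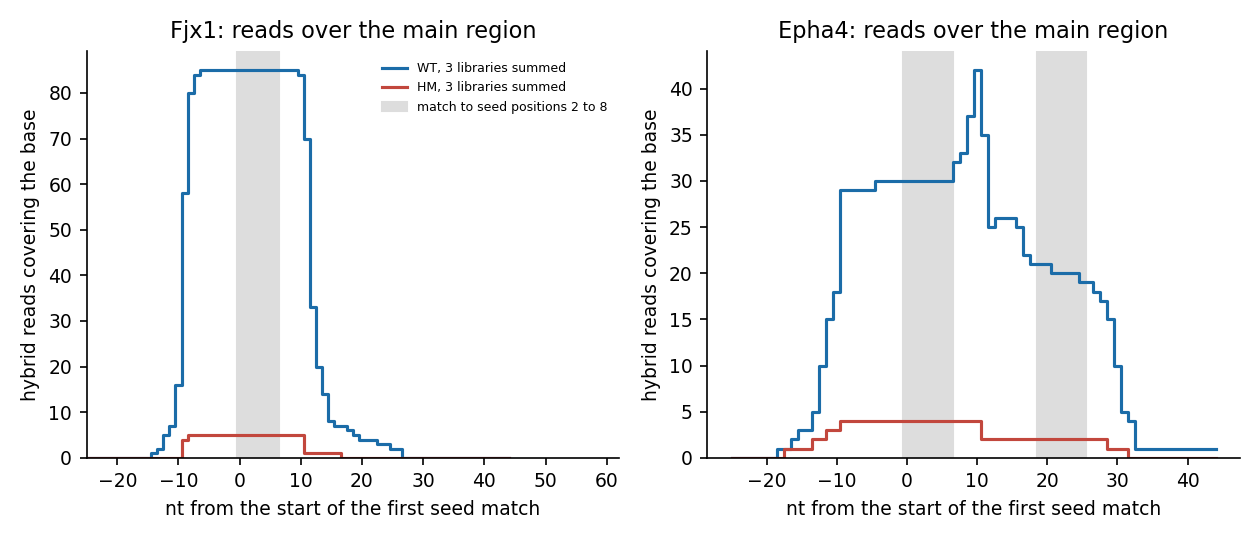
Hybrid reads covering each base of the main region of Fjx1 (left) and Epha4 (right), against the distance in nt from the start of the first seed match, with the 3 WT libraries (blue) and the 3 HM libraries (red) summed and the seed matches in grey. Fjx1 has 1 peak of 85 WT reads over 1 match, Epha4 has WT reads over 2 matches that start 19 nt apart, and the HM reads lie over the same stretch, with 5 and 4 reads.

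The share of reads with an 8mer was high on both genes beside the pooled hybrids of the family on other targets. On Fjx1 it was 91.4, 77.8 and 85.7% in WT libraries 1 to 3, and on Epha4 66.7, 66.7 and 50%. Among family hybrids on all other genes it was 17.2 to 23.2%. Both genes lay above this pooled share in every WT library, although the reads of a gene came almost all from 1 region and are not independent sites. The shares of Fjx1 and Epha4 include their few reads of other miRNAs, and the spread between single genes was not worked out. A match of 7 nt or more was present in 86.1% of the Fjx1 and 91.3% of the Epha4 reads of WT and in 68.5% of the family reads elsewhere. The predicted pairing energy of miRNA and fragment did not follow the same order, with a median of −9.3 kcal/mol on Fjx1, −12.2 kcal/mol on Epha4 and −11.2 kcal/mol for the family elsewhere. Fragment length also enters such energies, and the median fragment was 21 nt for Fjx1 and 23 nt for Epha4.

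The minor regions of Fjx1 are shown because they hold its reads without a family seed match and all of its 3p hybrids. Capitals mark the longest run that can pair with the miRNA named, wherever it lies in that miRNA, and for the 8mer also the A opposite base 1.
Fjx1 region 2, miR-106a-5p: gaatttcttCCTGCgtctccc
Fjx1 region 2, miR-30c-1-3p: cttcctgcgTCTCCCAAttga
Fjx1 region 3, miR-127-3p: atcGCCAAGCTgtctaaaaaa
Fjx1 region 5, miR-191-5p: aggaaaacTTCCGTTtgagct

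Region 2 of Fjx1 was the only one besides the main region with reads in every WT library, 3, 5 and 1. These 9 reads were of 4 family members, and none contained a seed match. The longest run on the fragment shown was 5 nt and paired with bases 16 to 20 of miR-106a-5p. Its 1 HM read, in library 2, carried miR-30c-1-3p, for which the same stretch has an 8mer. Region 3 held the 2 miR-127-3p reads of WT library 2, again without a seed match, but with a run of 8 nt opposite bases 14 to 21. It also held 1 read of miR-708-3p in HM library 2. Region 5 held the 2 miR-191-5p reads, with a 7mer-m8, and regions 4 and 6 held 3 family reads without a seed match. In all, 12 of the 97 family reads of Fjx1 in WT lay outside the main region, and none of these had a seed match.

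Of the small Epha4 regions, region 4 was 1 read of miR-20b-5p on a sequence that differs by 1 base from the second site, and region 5 overlapped the end of the main region. With a shared stretch of 10 nt in place of 12, both joined it and 3 regions were left. Region 3 was 1 miR-20b-5p read without a seed match. Region 2 was the 2 reads of miR-466i-5p in HM library 3, on a fragment made of TG repeats. miR-466i-5p had 229 reads on 141 genes, 81.7% of its entries held such a repeat, and no seed match was found in the Epha4 fragment, so its place on this gene is uncertain.

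Some 3p miRNAs of the miR-302 and miR-290 clusters share most of the family seed, displaced by 1 base, which raises the question whether 3p guides were also caught on these sites. The 6 such miRNAs with the seed AAGUGCU (miR-291a-3p, miR-294-3p, miR-295-3p, miR-302a-3p, miR-302b-3p and miR-302d-3p) made up 18.9 to 19.2% of the WT hybrids and 35.8 to 37.9% of the HM hybrids. None of their 1119 WT and 3559 HM reads was on Fjx1 or Epha4. The main region offered them a 6mer in 90 of 90 Fjx1 reads and in 46 of 47 Epha4 reads, and nothing longer. The authors kept only miRNA and gene pairs that TargetScan predicts, so a pair left out by that filter and a pair that was not bound cannot be told apart. Among the 31 genes with at least 10 family reads in WT, 13 (41.9%) also had hybrids of these 3p miRNAs, and 24 had hybrids of some 3p miRNA.

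The 7 Fjx1 and 6 Epha4 reads left in HM lay mostly on the same sites and were of the same family. On Fjx1, 5 reads covered the main 8mer, 4 with miR-20b-5p (1, 2 and 1 in HM libraries 1 to 3) and 1 with miR-20a-5p. The other 2 were the 3p hybrids of miR-30c-1-3p and miR-708-3p, both in HM library 2, so the 5p share was 71.4%. On Epha4, 4 reads covered the first site, 2 of them together with the second, and none covered the second alone. They were 2 reads of miR-20b-5p and 2 of miR-106a-5p, divided equally between HM libraries 1 and 3. No HM read of either gene carried miR-93-5p, miR-17-5p or miR-106b-5p.

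Of the 12 HM entries of both genes, 3 (25.0%) had a whole hybrid sequence that was also present in WT library 2, compared with 2.61% of all 9402 HM entries and 4.40% of the 159 family entries in HM. They were the miR-20b-5p reads of Fjx1 in HM 1 and in 1 of the HM 2 entries, and 1 miR-20b-5p read of Epha4 in HM 3. The Fjx1 entries of HM 1 and HM 2 held the same sequence. Fjx1 and Epha4 had the most family reads in WT, and the entries they are compared with were not matched for this. The same hybrid can form in separate cultures, and a carry-over of reads between libraries was not tested. Without every sequence seen in both genotypes the log2 fold change was −4.92 for Fjx1 and −3.73 for Epha4.

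The share of the family hybrids that lay on each gene is given as a description, since the same reads chose the genes. WT libraries held 602, 757 and 555 reads of the family and HM libraries 31, 79 and 50, 31.2 to 34.2% and 1.48 to 1.87% of the libraries. Fjx1 held 97 of 1914 family reads in WT, 5.07% with a Wilson 95% interval of 4.17 to 6.14%, and 5 of 160 in HM, 3.13% with an interval of 1.34 to 7.11%. Epha4 held 2.30% (1.72 to 3.07%) in WT and 2.50% (0.976 to 6.25%) in HM. The intervals cover counting error only, and no test was made.

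**Figure D4:**
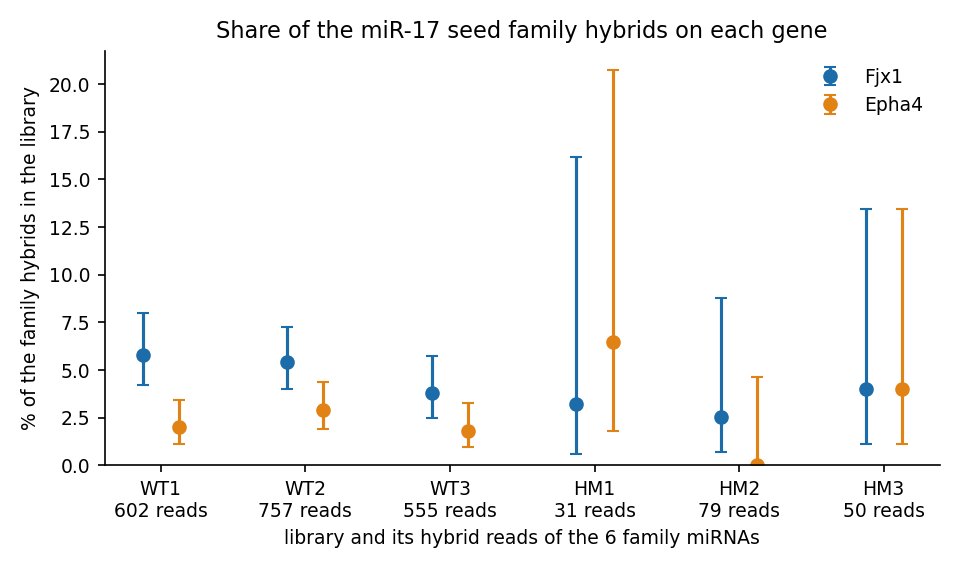
Share (%) of the hybrids of the 6 family miRNAs that lay on Fjx1 (blue) and Epha4 (orange) in each library, with Wilson 95% intervals and the family reads of the library under its name. Fjx1 is first in the 3 WT libraries, and the HM intervals, from 31, 79 and 50 reads, are wide.

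The miRNAs themselves were followed on all other genes, with every Fjx1 and Epha4 read left out and the libraries scaled to their 3p hybrids, a measure the choice of the genes did not use. All 6 family members were lower in HM. By edgeR's quasi-likelihood test with Benjamini-Hochberg adjustment, 43.6% of the 94 miRNAs tested were lower in HM, and of the 13 miRNAs joined to the 2 genes 10 could be tested and 8 of them were lower. Of these 8, 5 had fewer than 10 HM reads and reached the minimum only through WT, so their number supports nothing beyond the reads given here. Over all 94 miRNAs 15 were higher and 41 lower, but 31 and 31 when the libraries were scaled to all hybrids, a scale on which the median over these miRNAs was 0.30 (log2) in place of −0.72. On these genes miR-93-5p went from 128, 166 and 110 reads in WT to 1, 2 and 0 in HM, a log2 fold change of −8.61 (SE 0.31). miR-17-5p went from 66, 87 and 60 reads to 0, 1 and 0 (log2 fold change −8.87, SE 0.42). Both miRNAs reached the minimum only through WT, so their tests give no independent direction. miR-106b-5p had 42, 57 and 27 in WT and none in HM, at least 37.9-fold lower when each HM library is set at 3 reads. These 3 miRNAs came close to the lower limit of what the libraries could show.

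The 5 family reads left on Fjx1 and the 4 left on Epha4 in HM carried miR-20b-5p, miR-20a-5p or miR-106a-5p. Within the family these had the smallest falls on other genes. miR-20b-5p went from 158, 202 and 180 reads on other genes in WT to 15, 53 and 32 in HM (log2 fold change −4.23, SE 0.17, adjusted p = 5.15e-82). miR-20a-5p went from 41, 51 and 41 to 10, 15 and 11 (log2 fold change −3.64, SE 0.28, adjusted p = 8.91e-31). For miR-106a-5p the WT libraries held 120, 131 and 106 such reads against 2, 6 and 3 in HM (log2 fold change −6.75, SE 0.27, adjusted p = 5.15e-82). miR-20b-5p made up 66.2% of the 151 family reads on other genes in HM, 4 of the 5 on Fjx1 and 2 of the 4 on Epha4. The order on Epha4 was not that found elsewhere. miR-106a-5p made up 7.28% elsewhere but 2 of the 4 Epha4 reads, and miR-20a-5p made up 23.8% elsewhere and 0 of the 4. Reads this few do not rank the miRNAs on either gene. Scaled to all hybrids, the log2 fold change was −3.21 for miR-20b-5p, −2.63 for miR-20a-5p and −5.74 for miR-106a-5p. The difference between these miRNAs' changes was not tested.

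Of the miRNAs outside the family, miR-191-5p (10, 11 and 8 reads on other genes in WT) and miR-290a-5p (26, 38 and 13) had none in HM and were at least 9-fold and 22.7-fold lower. miR-30c-1-3p, seen once on Fjx1 in HM, had 0 reads on other genes in WT and 4, 5 and 5 in HM. It reached the minimum only through HM, so its test gives no independent direction. The reads of miR-466i-5p were 15, 6 and 35 in WT against 34, 93 and 44 in HM (log2 fold change −0.20, SE 0.27, adjusted p = 0.510 by edgeR), and its direction turned with the scaling to all hybrids and without WT replicate 3. miR-127-3p, miR-302d-5p and miR-708-3p had too few reads on other genes to be tested.

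**Figure D5:**
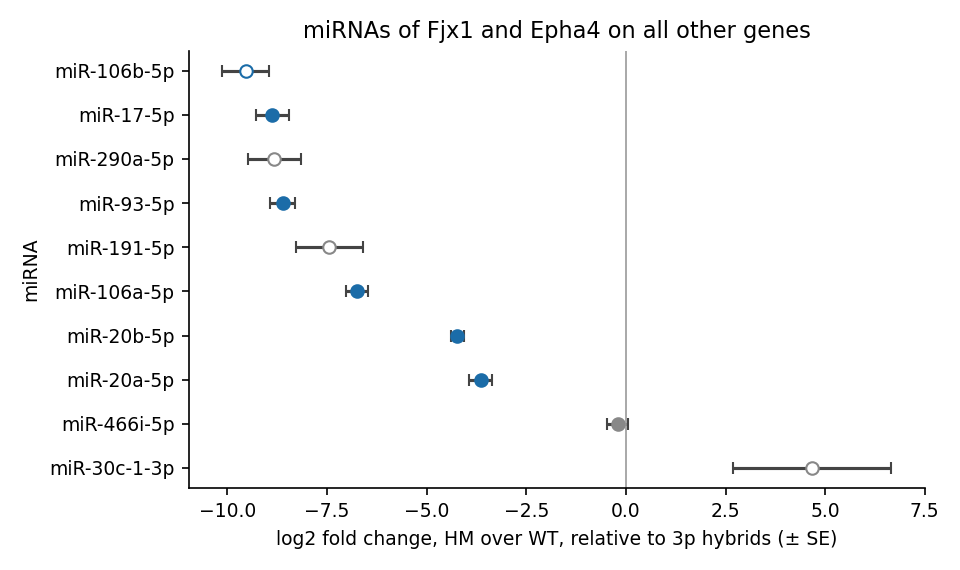
Log2 fold change of HM over WT (± SE, edgeR, relative to 3p hybrids) for the 10 tested miRNAs of Fjx1 and Epha4, on all other genes. The 6 family members (blue) lie between −3.64 and −9.54; open symbols have no read in 1 genotype, so that their position depends on the fit and is no measured fold.

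Other genes of the pathways had few hybrids. Of 33 genes of the Fat, Dachsous, planar polarity and Hippo group, where the substrates of Fjx1 act, 15 had a hybrid, with 39 reads in all (11 in WT and 28 in HM). None had more than 6 reads, so none reached the 10 reads needed for the test. Vangl1, a membrane protein of the planar polarity core, and Tead1, a transcription factor at the end of the Hippo pathway, had 6 reads each. Those of Vangl1 were 2, 2 and 0 in WT against 0, 2 and 0 in HM. Those of Tead1 were 1, 1 and 0 in WT against 0, 2 and 2 in HM. Prickle2 had no WT read and 1, 4 and 0 reads in HM. In this group 4 genes (Vangl1, Celsr2, Fzd3 and Wwtr1) had 9 family reads between them. The Fat cadherins Fat1 and Fat3 had 1 read each, in HM library 2. Fat4 and Dchs1, a Fat and a Dachsous cadherin, had no read. Of 11 other kinases of the secretory pathway only Fam20b, which phosphorylates a sugar of proteoglycan linkers, had any, with 3 reads.

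Of 21 other Eph receptors and ephrins 6 had a hybrid, and 1 could be tested. Epha2, a receptor for ephrins of the A class, had 2, 5 and 4 WT reads and none in HM, at least 1.64-fold lower. It was called lower by edgeR, where 16.6% of all tested genes were called in either direction, but it reached the minimum only through WT, so the direction of its call was fixed by that filter. Its miRNAs were miR-26a-5p with 8 reads and miR-26b-5p with 3, so Epha2 and Epha4 had no miRNA in common. The ligand Efna5 had no WT read and 0, 2 and 4 reads in HM. Efnb2, an ephrin of the B class that Epha4 can bind, had none in WT and 0, 3 and 1 in HM. For each ligand 1 of these reads was of miR-466i-5p, found mostly on TG repeats. HM libraries 2 and 3, which held all these reads, were the deepest, with 5341 and 2797 reads. Epha5 was the only other member with a family read, 1 of miR-93-5p in WT library 3.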

How the data were processed

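AGO2-CLASH was done by the authors on 3 WT and 3 HM cultures. They named the miRNA of a hybrid with QuagmiR, aligned the target part with Bowtie2 to 3′ UTRs of coding genes, and kept pairs predicted by TargetScan 8.0. The build, the other versions and the handling of duplicates and multiple matches are not given in the sources used here. The deposited values are read counts per hybrid sequence, with no scaling; reads may not be independent molecules, and intervals cover counting error only. Genotype and replicate came from the sample titles.

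The genes and all lists were chosen with earlier results of these data known. Counts were summed per gene, and per miRNA with Fjx1 and Epha4 left out. Features with at least 10 reads were tested with edgeR 4.0.16 (quasi-likelihood, R 4.3.3) at a Benjamini-Hochberg adjusted p of 0.05. Genes were scaled to all hybrids and miRNAs to 3p hybrids, and DESeq2 1.42.0 was an alternative. Each SE is the absolute log2 fold change divided by the square root of the F statistic of the edgeR test. Seed matches were found from RefSeq miRNAs (GRCm38.p6; 255 of 298 names matched, otherwise the commonest deposited miRNA part), and energies with RNAduplex 2.7.2. Named genes were Fjx1 and Epha4, the 5 genes most like each, the 5 with most family reads, and list genes with at least 10 reads; others, such as Vangl1 and Efna5, were named after their values were seen. On data simulated for HM against WT with 4-fold changes, the gene test recovered 24 of 64 changed genes with 2 false calls among 291 tested. The miRNA test recovered 10 of 19 with 1 among 90. Both simulations were scaled to all hybrids, with an assumed spread and changes drawn at random in both directions. The miRNA test above was scaled to 3p hybrids, so its own recovery was not measured.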

Additional observations from a re-analysis of the deposited data

How the results depend on the processing

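The log2 fold change of Fjx1 was −5.52 when libraries were scaled to 3p hybrids (Epha4 −4.55) and −4.92 without sequences seen in both genotypes, an alternative chosen after seeing the data; leaving out each library gave −4.63 to −4.37 for Fjx1 and −4.51 to −2.47 for Epha4. Of 344 genes tested 57 were called, 20 higher and 37 lower. DESeq2 called 14, no minimum of reads 23, at least 30 reads 17, and leaving out each library 25 to 46, with 25 without WT replicate 2, 27 without WT replicate 1 and 32 without HM replicate 2. Scaled to 3p hybrids, 1 gene was higher and 68 lower. Deviations from the group means correlated at −0.055, −0.025 and −0.024 between WT and HM libraries of the same number, over 344 genes. Counts this low could hide a pairing, so none is excluded. The replicate block called 34 genes. Of 94 miRNAs 56 were called, 15 higher and 41 lower (31 and 31 with all hybrids as the scale), and 34 with at least 30 reads, where only 50 were tested; leaving out each library gave 40 to 59. The 8 calls of lower miRNAs joined to the 2 genes held under each alternative that could test them. Of these 8 miRNAs, 5 reached the minimum only through WT. miR-30c-1-3p lost its call under 7 alternatives, among them DESeq2 (adjusted p = 0.0586). miR-466i-5p turned to 0.83 with all hybrids as the scale and to 0.80 without WT replicate 3, both called, and was −0.77 and called without WT replicate 2. Epha4 had 3 regions at a shared stretch of 10 nt. The 5p shares did not move beyond the spread between libraries (97.8 to 100% for Fjx1 and 100% for Epha4 without each library). The causes of these changes were not tested. Depth limits the HM values, with 31 to 79 family reads per library.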
